A study of Mus musculus with 12 samples.

Results

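The genes described here are 10 genes of renal phosphate transport and Klotho, taken from the 19036 genes of a mouse kidney expression table by gene symbol, whatever their values. They are the sodium-phosphate cotransporters Slc34a1, Slc34a3, Slc20a1 and Slc20a2, the phosphate exporter Xpr1, the FGF23 co-receptor Kl and receptor Fgfr1, the parathyroid hormone receptor Pth1r, and the scaffold proteins Pdzk1 and Slc9a3r1. The study asked, per its title, whether 84-B10 lessens the acute kidney injury caused by cisplatin, a platinum drug that is toxic to the kidney tubule. Bulk RNA sequencing was made of whole kidney from C57BL/6 mice in 3 groups of 4 libraries, all taken at 72 h. The cisplatin+84-B10 group received 84-B10 at 15 mg/kg from 48 h before cisplatin at 25 mg/kg, injected intraperitoneally, and 84-B10 daily afterwards; the cisplatin group received the same dose of cisplatin; the vehicle group received saline by the same route. The labels differ on the cisplatin group: the treatment protocol extends the 84-B10 pretreatment to it, and the design text gives it to the combination group alone. No group received 84-B10 without cisplatin.

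Phosphate filtered at the glomerulus is taken back mainly in the proximal tubule, where the cotransporters NaPi-IIa (Slc34a1) and NaPi-IIc (Slc34a3) sit in the brush border, held by the PDZ scaffolds NHERF1 (Slc9a3r1) and PDZK1. Parathyroid hormone, through Pth1r, and the bone hormone FGF23, through FGF receptors paired with Klotho, both take these cotransporters out of the membrane and so let phosphate pass into the urine. Klotho is made above all in the distal convoluted tubule, with a lower level in the proximal tubule, and its loss is a known feature of acute kidney injury.

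All 10 genes differed from vehicle in both cisplatin-treated groups, as did 79.2% of all genes tested in cisplatin+84-B10 and 78.1% in cisplatin kidneys. Slc34a1, Slc34a3, Kl, Pdzk1, Pth1r, Xpr1 and Slc9a3r1 fell, and Slc20a1, Slc20a2 and Fgfr1 rose. The largest falls were those of Slc34a3, Slc34a1 and Kl, to between 11.1% and 19.9% of the vehicle mean. The largest rise was that of Slc20a1, to 3.71 times the vehicle mean in cisplatin+84-B10 kidneys and 4.24 times in cisplatin kidneys. None of the 10 passed the test between cisplatin+84-B10 and cisplatin kidneys, where 2.21% of all genes did. Levels are in FPKM, fragments counted per unit of transcript length and of library size. Fold changes are differences of log2(FPKM + 1), tested with limma over the 12428 genes that reached 1 FPKM in at least 4 libraries, and a call is a Benjamini-Hochberg adjusted p under 0.05. Both comparisons with vehicle use the same 4 vehicle libraries. The p-values measure the spread between libraries labelled as biological replicates.

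A call against vehicle was the common outcome in these kidneys. Of all genes tested, 56.6% were called higher and 22.6% lower in cisplatin+84-B10 than in vehicle kidneys, and 56.3% higher and 21.8% lower in cisplatin than in vehicle kidneys. Of the 10 phosphate and Klotho genes, 3 were called higher and 7 lower in each of these comparisons, with a median log2 fold change of -0.98 in each, against 0.26 over all genes tested. The groups did not overlap for any of the 10. Over all genes, 53.9% were higher and 20.9% lower without overlap in cisplatin+84-B10 against vehicle, and 52.0% were higher and 19.6% lower without overlap in cisplatin against vehicle. Between cisplatin+84-B10 and cisplatin kidneys, 0.435% of all genes were called higher and 1.78% lower. Scaling moved the split against vehicle: 6999 genes were higher and 2711 lower in cisplatin kidneys as deposited, and 4618 higher and 4602 lower after median-of-ratios scaling, which moved the median log2 fold change of all genes to 0.01 in place of 0.26.

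The promoters of the most abundant transporter, of the gene that rose most and of Klotho are shown because these genes carry the main contrast, and because the first and the last fell together while Slc20a1 rose. Each is a RefSeq window in GRCm38.p6 of 250 bases before to 50 after an annotated start, written 5′ to 3′ on the gene's strand. The build used for the deposited table is not given in the sources used here. Capitals mark 4 short motifs, chosen after the sequences were seen and searched on both strands. GTTAAT is a half-site of HNF1, a factor of proximal tubule and liver; CACGTG is an E-box; TATAAA is the core promoter element bound by TBP; and GGGCGG is the GC box bound by SP1.
Slc34a1, chr13:55399398-55399697, plus strand: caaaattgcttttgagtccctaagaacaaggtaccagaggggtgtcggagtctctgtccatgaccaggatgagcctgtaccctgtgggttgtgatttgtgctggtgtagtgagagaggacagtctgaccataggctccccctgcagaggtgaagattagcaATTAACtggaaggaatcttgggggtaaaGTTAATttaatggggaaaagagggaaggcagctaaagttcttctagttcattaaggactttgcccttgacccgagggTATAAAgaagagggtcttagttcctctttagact
Slc20a1, chr2:129198523-129198822, plus strand: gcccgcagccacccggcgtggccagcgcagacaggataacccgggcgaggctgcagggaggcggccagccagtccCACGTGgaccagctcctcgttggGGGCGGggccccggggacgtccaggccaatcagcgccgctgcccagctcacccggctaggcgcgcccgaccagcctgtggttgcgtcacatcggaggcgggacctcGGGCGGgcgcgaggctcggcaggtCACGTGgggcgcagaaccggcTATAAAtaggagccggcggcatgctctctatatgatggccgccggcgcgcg
Kl, chr5:150952357-150952656, plus strand: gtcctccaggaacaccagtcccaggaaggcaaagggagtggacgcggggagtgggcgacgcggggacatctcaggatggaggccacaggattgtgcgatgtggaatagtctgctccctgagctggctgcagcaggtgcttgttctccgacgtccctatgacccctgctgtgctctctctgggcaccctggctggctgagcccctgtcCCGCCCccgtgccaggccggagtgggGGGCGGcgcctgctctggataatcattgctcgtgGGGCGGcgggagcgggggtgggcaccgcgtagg
The Slc34a1 window holds GTTAAT on both strands, at positions -89 and -61 from the annotated start, and TATAAA at 17. The Slc20a1 window holds CACGTG at -175 and -22, GGGCGG at -152 and -46, and TATAAA at -1. The Kl window holds GGGCGG 3 times, at -43, -17 and 18. No motif overlapped another in these windows. Of 32851 RefSeq promoter windows, 7.10% hold GTTAAT, 7.15% CACGTG, 13.6% TATAAA and 35.7% GGGCGG. The Slc34a1 window has 2 CG pairs, the Slc20a1 window 36 and the Kl window 19, against a median of 7 over all windows. RefSeq lists a further Slc20a1 window, chr2:129206846-129207145, that is not shown. It has 6 CG pairs and GGGCGG at -140, and holds none of the other motifs. RefSeq windows were found for 8 of the 10 genes. A match describes the letters only.

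Slc34a1 (NCBI gene 20505), which encodes NaPi-IIa, the cotransporter that takes back most filtered phosphate in mice, had 1309.58, 577.29, 640.56 and 949.46 FPKM in cisplatin+84-B10 kidneys. It had 1061.17, 487.85, 505.58 and 515.89 FPKM in cisplatin kidneys. It had 4459.62, 4582.17, 4415.41 and 4391.83 FPKM in vehicle kidneys. Vehicle libraries lay within a narrow band far above every treated library, and the treated groups overlapped each other, with library 1 the highest of each. In vehicle kidneys Slc34a1 was the 4th or 5th most abundant gene of the table in FPKM; it ranked between 30 and 132 in cisplatin+84-B10 libraries and between 39 and 168 in cisplatin libraries. The log2 fold change was -2.44 in cisplatin+84-B10 kidneys (limma, adjusted p = 1.38e-06) and -2.88 ± 0.26 (SE, adjusted p = 2.89e-07) in cisplatin kidneys, each against vehicle. It was 0.44 in cisplatin+84-B10 against cisplatin kidneys, with a 95% interval of -0.13 to 1.01 (limma, adjusted p = 0.464). Leaving out 1 library moved it between 0.22 (without cisplatin+84-B10 library 1) and 0.71 (without cisplatin library 1), with no call. Without cisplatin library 1 the log2 fold change of cisplatin against vehicle was -3.15.

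Slc34a3 (NCBI gene 142681), which encodes NaPi-IIc, was present at a much lower level and fell alongside. It had 7.61, 2.58, 2.83 and 5.46 FPKM in cisplatin+84-B10 kidneys, 7.71, 2.2, 3.21 and 1.96 FPKM in cisplatin kidneys, and 36.11, 34.51, 31.29 and 33.92 FPKM in vehicle kidneys. Every treated library was below every vehicle library, and library 1 was again the highest of each treated group. The mean was 13.6% of vehicle in cisplatin+84-B10 kidneys (log2 fold change -2.73, limma adjusted p = 3.02e-06) and 11.1% in cisplatin kidneys (-3.02 ± 0.32, adjusted p = 1.24e-06). With 0.1 FPKM added in place of 1, the log2 fold change of cisplatin against vehicle was -3.35. It was also -3.35 without cisplatin library 1, and -4.00 in edgeR on the estimated counts of the 10 libraries that have them, which leaves out cisplatin libraries 1 and 2 and scales differently. For cisplatin+84-B10 against cisplatin the log2 fold change was 0.28, with a 95% interval of -0.41 to 0.97 (limma, adjusted p = 0.728).

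Slc20a1 (NCBI gene 20515), which encodes PiT-1, a sodium-phosphate cotransporter of the other family made by most cell types, moved the opposite way. It had 56.89, 52.65, 57.07 and 52.56 FPKM in cisplatin+84-B10 kidneys, 61.17, 57.38, 67.45 and 64.41 FPKM in cisplatin kidneys, and 15.02, 15.68, 15.39 and 12.94 FPKM in vehicle kidneys. Both treated groups lay far above vehicle, and every cisplatin+84-B10 library was below every cisplatin library, a separation without overlap that 8.24% of all genes tested showed in either direction. The log2 fold change against vehicle was 1.83 in cisplatin+84-B10 kidneys (limma, adjusted p = 3e-11) and 2.01 ± 0.07 (SE, adjusted p = 1.23e-11) in cisplatin kidneys. It was -0.19 between the treated groups, cisplatin+84-B10 over cisplatin (95% interval -0.33 to -0.04), which had an unadjusted p of 0.0145 and did not pass after adjustment (limma, adjusted p = 0.205).

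Slc20a2 (NCBI gene 20516), which encodes PiT-2, the close relative of PiT-1, rose less. It had 25.02, 25.43, 27.36 and 25.08 FPKM in cisplatin+84-B10 kidneys, 24.24, 26.20, 25.03 and 25.97 FPKM in cisplatin kidneys, and 14.28, 13.86, 11.68 and 13.40 FPKM in vehicle kidneys. The treated groups were alike in range and both were above vehicle, with log2 fold changes of 0.90 (adjusted p = 1.09e-08) in cisplatin+84-B10 kidneys and 0.88 ± 0.06 (adjusted p = 1.54e-08) in cisplatin kidneys by limma. Their difference was 0.02, with a 95% interval of -0.11 to 0.15. The unequal rise of the PiT genes was tested within each library, as the difference of log2(FPKM + 1), Slc20a1 minus Slc20a2. This difference averaged 1.06 in cisplatin+84-B10, 1.27 in cisplatin and 0.14 in vehicle kidneys, and was larger than in vehicle in both treated groups (exact two-sided permutation test, p = 0.0286, the smallest that 4 against 4 libraries allow, adjusted p = 0.049 over the 12 relative tests made). Its value in cisplatin+84-B10 minus that in cisplatin kidneys was -0.21 (exact p = 0.0571, adjusted p = 0.0762).

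Xpr1 (NCBI gene 19775), which encodes the only known phosphate exporter of animal cells, fell by a smaller amount. It had 12.34, 9.92, 10.79 and 11.95 FPKM in cisplatin+84-B10 kidneys, 14.53, 12.32, 10.38 and 11.76 FPKM in cisplatin kidneys, and 17.54, 16.57, 17.66 and 17.46 FPKM in vehicle kidneys. The treated groups overlapped each other and neither reached the vehicle range. Xpr1 stood at 65.0% of the vehicle mean in cisplatin+84-B10 kidneys (log2 fold change -0.58, limma adjusted p = 3.06e-05) and at 70.8% in cisplatin kidneys (-0.48 ± 0.09, adjusted p = 0.000201). The fall of cisplatin against vehicle was larger after median-of-ratios scaling (-0.75) and in edgeR (-0.91).

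**Figure D1:**
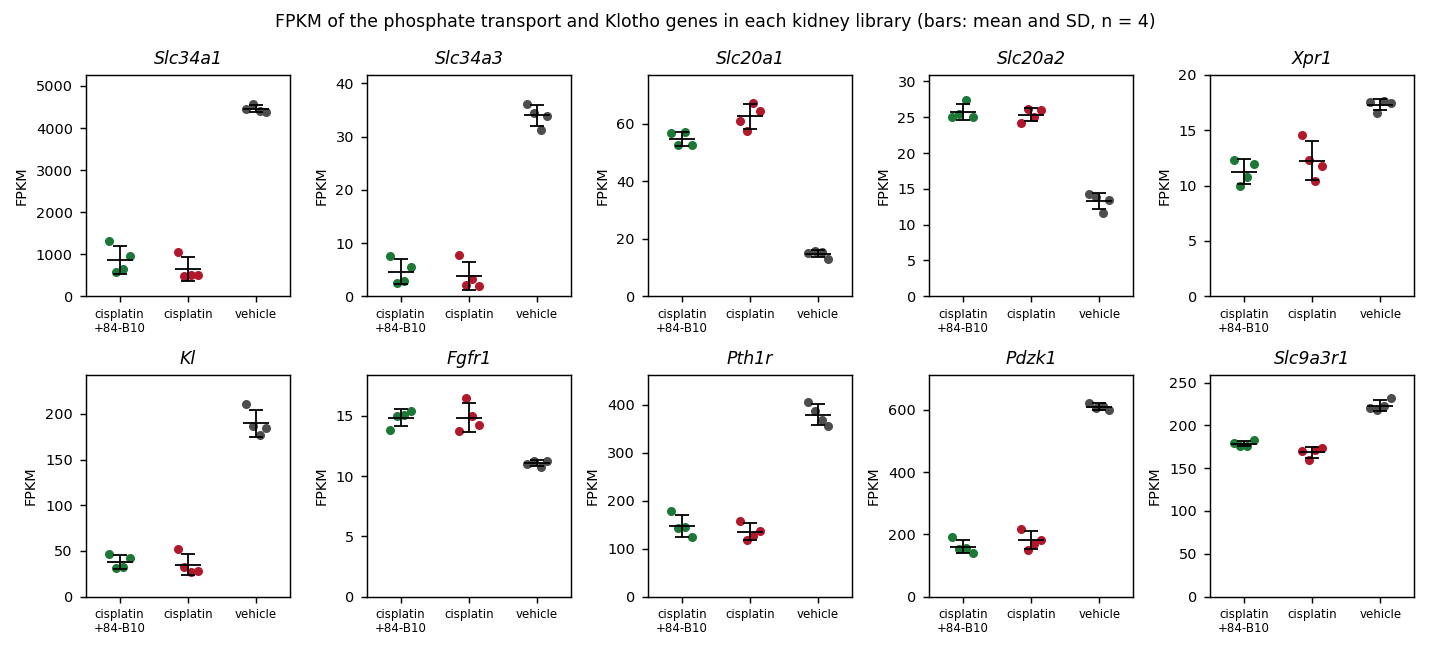
FPKM of each of the 10 genes (vertical axes, linear, each from 0) in the 4 libraries of the cisplatin+84-B10, cisplatin and vehicle groups; points are libraries and bars are mean and SD. Slc34a1 lies between 4391.83 and 4582.17 FPKM in vehicle kidneys and at no more than 1309.58 FPKM in any treated library, while Slc20a1 is above 50 FPKM in all 8 treated libraries and below 16 FPKM in vehicle.

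The falls and rises changed the make-up of the phosphate transporter messages. Summed over Slc34a1, Slc34a3, Slc20a1, Slc20a2 and Xpr1, the level was 966 ± 339 FPKM in cisplatin+84-B10, 747 ± 282 FPKM in cisplatin and 4542 ± 86.4 FPKM in vehicle kidneys (SD, n = 4 each). Slc34a1 made up 92.78%, 86.44%, 86.73% and 90.9% of this sum in cisplatin+84-B10 libraries, 90.79%, 83.26%, 82.66% and 83.21% in cisplatin libraries, and 98.25% ± 0.0566 in vehicle libraries. Slc34a1 thus stayed the most abundant of the 5 in every library. The share of Slc20a1 was 6.17% ± 1.94 in cisplatin+84-B10, 9.11% ± 2.63 in cisplatin and 0.325% ± 0.0240 in vehicle kidneys. Slc34a1 was 15.8 ± 5.82 times as abundant as Slc20a1 in cisplatin+84-B10, 10.3 ± 4.69 times in cisplatin and 304 ± 24.0 times in vehicle kidneys. These shares are descriptions in FPKM, with no test, and they are of message, not of transport.

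**Figure D2:**
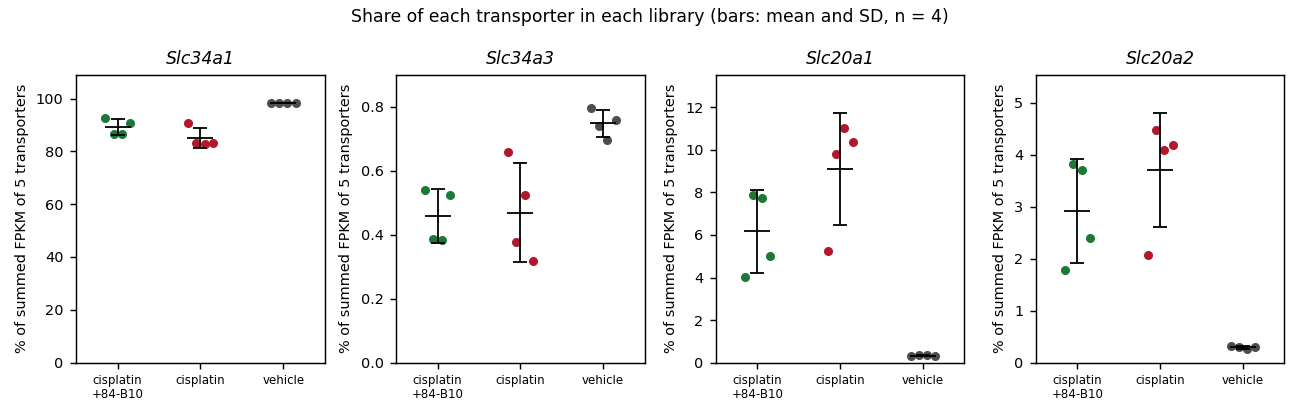
Share of Slc34a1, Slc34a3, Slc20a1 and Slc20a2 (vertical axes, % of the summed FPKM of these and Xpr1, each from 0) in every library of the 3 groups; points are libraries and bars are mean and SD, n = 4. The Slc20a1 share is at most 0.343% in vehicle libraries and at least 4.03% in every treated library.

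How unequally Slc34a1 and Slc34a3 fell against vehicle depended on the added constant, while the side of the threshold did not. The per-library difference of log2(FPKM + 1), Slc34a1 minus Slc34a3, averaged 7.29 in cisplatin+84-B10, 7.14 in cisplatin and 7.0 in vehicle kidneys. Cisplatin kidneys were 0.14 above vehicle (exact two-sided permutation p = 0.371, adjusted p = 0.405), and 0.47 above it with 0.1 FPKM added in place of 1 (adjusted p = 0.0686). Cisplatin+84-B10 kidneys were 0.30 above vehicle, with no overlap (exact p = 0.0286, adjusted p = 0.049), and 0.55 above it with 0.1 FPKM added (adjusted p = 0.049). As a plain ratio of FPKM, Slc34a1 over Slc34a3 was 199 ± 30.1 in cisplatin+84-B10, 195 ± 57.9 in cisplatin and 132 ± 7.35 in vehicle kidneys (SD, n = 4 each).

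Klotho (Kl, NCBI gene 16591) is the membrane co-receptor that lets FGF receptors bind FGF23, and is also shed into blood and urine. It had 46.36, 31.02, 32.18 and 41.87 FPKM in cisplatin+84-B10 kidneys, 51.65, 32.15, 27.13 and 28.50 FPKM in cisplatin kidneys, and 211.42, 186.73, 176.97 and 184.18 FPKM in vehicle kidneys. The lowest vehicle library was more than 3 times the highest treated library, and library 1 was the highest of each group. Kl stood at 19.9% of the vehicle mean in cisplatin+84-B10 kidneys (log2 fold change -2.31, limma adjusted p = 4.06e-08) and at 18.4% in cisplatin kidneys (-2.46 ± 0.18, adjusted p = 2.58e-08). For cisplatin+84-B10 against cisplatin it was 0.14, with a 95% interval of -0.24 to 0.52 (limma, adjusted p = 0.754).

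Fgfr1 (NCBI gene 14182), the FGF receptor that pairs with Klotho to bind FGF23, had 13.80, 15.01, 15.07 and 15.42 FPKM in cisplatin+84-B10 kidneys, 13.71, 16.45, 14.99 and 14.25 FPKM in cisplatin kidneys, and 11.04, 11.24, 10.73 and 11.26 FPKM in vehicle kidneys. The treated libraries all lay above vehicle, by a log2 fold change of 0.39 in each group (limma, adjusted p = 2.9e-05 for cisplatin+84-B10 and 3.02e-05 for cisplatin). This rise was close to the 0.26 by which the median gene moved, and it lost its call in cisplatin kidneys after median-of-ratios scaling (0.12, adjusted p = 0.0522), quantile normalization (0.09, adjusted p = 0.152), edgeR (0.12, adjusted p = 0.0806) and DESeq2 (0.11, adjusted p = 0.169). Of the 10 genes, Fgfr1 alone lost or gained a call under the alternatives run. Kl was 2.57 ± 0.602 times as abundant as Fgfr1 in cisplatin+84-B10, 2.38 ± 0.927 times in cisplatin and 17.2 ± 1.34 times in vehicle kidneys, in FPKM (SD, n = 4 each).

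Pth1r (NCBI gene 19228), the receptor through which parathyroid hormone lowers phosphate uptake, had 177.59, 143.52, 144.04 and 123.30 FPKM in cisplatin+84-B10 kidneys, 158.08, 117.68, 125.28 and 137.57 FPKM in cisplatin kidneys, and 405.70, 387.69, 368.26 and 355.64 FPKM in vehicle kidneys. The treated groups overlapped each other and lay below vehicle. Pth1r stood at 38.8% of the vehicle mean in cisplatin+84-B10 kidneys (log2 fold change -1.37, limma adjusted p = 5.1e-08) and at 35.5% in cisplatin kidneys (-1.49 ± 0.11, adjusted p = 2.5e-08). The treated groups differed by 0.12, with a 95% interval of -0.11 to 0.35 (limma, adjusted p = 0.627).

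Of the scaffolds, Pdzk1 fell by much more than Slc9a3r1. Pdzk1 (NCBI gene 59020), which binds NaPi-IIa and other brush border transporters, had 190.80, 151.69, 156.35 and 141.11 FPKM in cisplatin+84-B10 kidneys, 218.73, 151.12, 169.38 and 183.22 FPKM in cisplatin kidneys, and 623.87, 607.50, 613.47 and 599.74 FPKM in vehicle kidneys. No treated library came near the vehicle range. The log2 fold change was -1.94 in cisplatin+84-B10 kidneys (26.2% of the vehicle mean, limma adjusted p = 1.54e-09) and -1.77 ± 0.11 in cisplatin kidneys (29.6%, adjusted p = 4.43e-09).

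Slc9a3r1 (NCBI gene 26941), which encodes NHERF1, the scaffold that holds NaPi-IIa at the membrane, had 179.19, 176.45, 176.16 and 183.32 FPKM in cisplatin+84-B10 kidneys, 169.90, 159.70, 171.08 and 173.32 FPKM in cisplatin kidneys, and 220.26, 217.62, 222.71 and 231.92 FPKM in vehicle kidneys. Cisplatin+84-B10 libraries lay above every cisplatin library and below every vehicle library. Of all genes tested, 8.24% showed no overlap between the treated groups, in either direction. The log2 fold change against vehicle was -0.32 in cisplatin+84-B10 kidneys (limma, adjusted p = 1.89e-05) and -0.40 ± 0.04 in cisplatin kidneys (adjusted p = 1.99e-06); the second was -0.70 after median-of-ratios scaling and -0.26 after quantile normalization. Between cisplatin+84-B10 and cisplatin kidneys the log2 fold change was 0.09 (95% interval -0.01 to 0.18, adjusted p = 0.403).

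**Figure D3:**
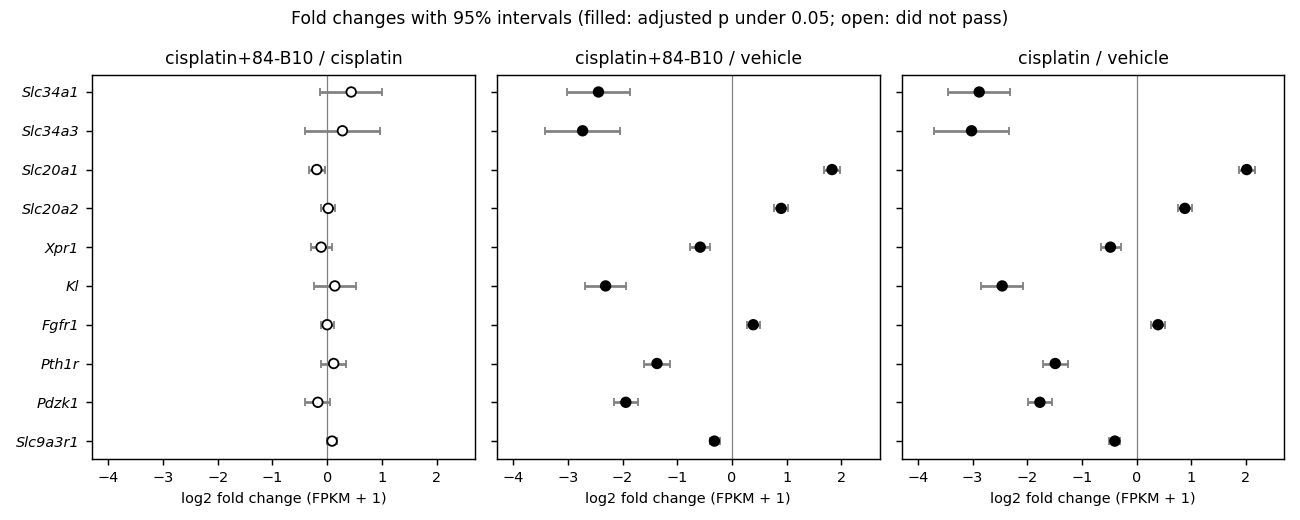
log2 fold changes of FPKM + 1 of the 10 genes (horizontal axes) with 95% intervals, for cisplatin+84-B10 over cisplatin, cisplatin+84-B10 over vehicle and cisplatin over vehicle; filled points had a limma adjusted p under 0.05 and open points did not. All 10 points are filled in both comparisons with vehicle, from -3.02 for Slc34a3 to 2.01 for Slc20a1 in cisplatin kidneys, and all 10 are open between the treated groups.

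Between cisplatin+84-B10 and cisplatin kidneys the log2 fold changes of the 10 genes ran from -0.19 for Slc20a1 to 0.44 for Slc34a1, with a median of 0.05 against 0.02 over all genes tested. At an unadjusted p under 0.05 limma gave 1 gene, Slc20a1, and edgeR and DESeq2 on estimated counts called 0 of the 10 after adjustment. The intervals differ in width. Those of Slc20a2, Fgfr1 and Slc9a3r1 lie within 0.18 of 0 on the log2 scale. Those of Slc34a1, Slc34a3 and Kl reach 1.01, 0.97 and 0.52, so that differences up to that size in these genes are not excluded. The spread behind each interval is pooled over the 3 groups, vehicle included. For Slc34a1 the SD was 336 FPKM in cisplatin+84-B10, 279 FPKM in cisplatin and 84.7 FPKM in vehicle kidneys. Its interval between the treated groups may therefore be too narrow. Library 1 was the highest of its group for Slc34a1, Slc34a3, Kl, Pdzk1, Xpr1 and Pth1r, and the lowest for Slc20a2 and Fgfr1, in cisplatin+84-B10 and in cisplatin kidneys alike.

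Most markers of the proximal and distal convoluted tubule fell, as Slc34a1, Slc34a3 and Kl did, whereas Slc20a1 and Slc20a2 rose. All 14 proximal tubule markers, such as Lrp2 (megalin), were called lower than in vehicle in both treated groups. Their median log2 fold change was -1.57 in cisplatin+84-B10 and -1.32 in cisplatin kidneys. Of all genes tested, 22.6% were called lower in cisplatin+84-B10 and 21.8% in cisplatin kidneys. The summed level of the 14 markers was 1022 to 1765 FPKM in cisplatin+84-B10, 1131 to 1904 FPKM in cisplatin and 5913 to 6110 FPKM in vehicle kidneys. Of this sum, Miox alone averaged 211 FPKM in cisplatin+84-B10, 161 FPKM in cisplatin and 2601 FPKM in vehicle kidneys. In whole kidney, fewer cells of a type and less RNA per cell cannot be told apart. Slc34a1 fell by more than the mean of these markers, though Miox fell further in both treated groups (-3.78 in cisplatin+84-B10, -4.20 in cisplatin) and Slc22a8 further in cisplatin kidneys (-2.92). The log2(FPKM + 1) level of Slc34a1 stood above that mean by 3.45 ± 0.23 in cisplatin+84-B10, 3.00 ± 0.19 in cisplatin and 4.22 ± 0.04 in vehicle kidneys (SD, n = 4 each), a difference from vehicle of -0.76 in cisplatin+84-B10 and -1.22 in cisplatin kidneys (exact two-sided permutation p = 0.0286 each, adjusted p = 0.049). Between cisplatin+84-B10 and cisplatin kidneys this excess differed by 0.46, with overlapping groups (exact p = 0.0571, adjusted p = 0.0762; 0.55 without cisplatin library 1, adjusted p = 0.0429). In that comparison 2 of the 14 markers, Aqp1 (-0.82, a call lost in edgeR and DESeq2) and Slc3a1 (-0.65), fell in cisplatin+84-B10 kidneys and the other 12 did not pass. There, 1.78% of all genes tested were called lower.

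Of 8 distal convoluted tubule markers, 7 were called lower in each treated group against vehicle. The remaining marker, Trpv5, was called higher in cisplatin+84-B10 kidneys (0.47), a call lost under 4 of 5 other scalings or count tests. The share of all genes tested that was called lower was 22.6% in cisplatin+84-B10 and 21.8% in cisplatin kidneys. The summed level of the 8 markers was 192 to 246.9 FPKM in cisplatin+84-B10, 116.6 to 249.5 FPKM in cisplatin and 428.2 to 587.8 FPKM in vehicle kidneys. Kl fell by more than their mean, though by less than Pvalb (-3.61 in cisplatin+84-B10, -3.75 in cisplatin). As log2(FPKM + 1), Kl exceeded their mean by 1.91 ± 0.22 in cisplatin+84-B10, 1.97 ± 0.18 in cisplatin and 2.93 ± 0.08 in vehicle kidneys (SD, n = 4 each). The differences from vehicle were -1.02 in cisplatin+84-B10 and -0.96 in cisplatin kidneys (exact p = 0.0286 and adjusted p = 0.049 each). They depended on the added constant, since Pvalb had at most 1.32 FPKM in treated libraries. With 0.1 FPKM added in place of 1, they were -0.82 in cisplatin+84-B10 and -0.70 in cisplatin kidneys (exact test, adjusted p = 0.049 each). Between cisplatin+84-B10 and cisplatin kidneys this excess differed by -0.06 (exact p = 0.6). Fibroblast and pericyte markers, which mark cells that also make Fgfr1 and Slc20a1, were all 5 called higher against vehicle. So were 56.6% of all genes tested in cisplatin+84-B10 and 56.3% in cisplatin kidneys. Among the 5, Pdgfra lost its call in cisplatin+84-B10 kidneys after quantile normalization. Their sums were 42.52 to 59.88 FPKM in cisplatin+84-B10, 39.73 to 89.37 FPKM in cisplatin and 15.12 to 23.77 FPKM in vehicle kidneys. The 5 leukocyte markers Ptprc, Adgre1, Itgam, Cd3e and Cd68 summed to 71.35 to 87.26 FPKM in cisplatin+84-B10, 54.22 to 79.54 FPKM in cisplatin and 4.32 to 5.43 FPKM in vehicle kidneys. Of these, Adgre1 and Cd3e stayed under 1 FPKM in every library, and Ptprc fell against vehicle by 0.24 in cisplatin+84-B10 and by 0.28 in cisplatin kidneys on the log2 scale. Cd68 made up most of the leukocyte sums of the treated groups. It averaged 77.39 FPKM in cisplatin+84-B10, 64.13 FPKM in cisplatin and 1.96 FPKM in vehicle kidneys. The part of these shifts in the results above was not tested beyond the relative measures given.

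Of 14 other genes of FGF23 and Klotho signalling, Fgf23 and Klb did not reach the level for testing; Fgf23, a hormone made in bone, had at most 0.06 FPKM. In cisplatin kidneys 8 of the other 12 were called higher and 2 lower, and in cisplatin+84-B10 kidneys 7 higher and 2 lower; after median-of-ratios scaling the cisplatin counts were 4 and 3. Those lower were the receptors Fgfr4 and Fgfr3. Fgfr4 had 10.3, 8.29, 7.02 and 8.64 FPKM in cisplatin+84-B10, 10.21, 8.14, 9.55 and 8.65 FPKM in cisplatin and 19.55, 21.33, 21.67 and 20.62 FPKM in vehicle kidneys, with treated and vehicle libraries apart (log2 fold change -1.2 in cisplatin+84-B10, limma adjusted p = 4.89e-08, and -1.11 in cisplatin kidneys, adjusted p = 1.2e-07). Egr1, an immediate early gene that FGF23 and many other stimuli induce, rose on the log2 scale by 3.71 in cisplatin+84-B10 and by 3.58 in cisplatin kidneys. The feedback inhibitors Spry2 (1.25 in cisplatin+84-B10, 1.2 in cisplatin) and Dusp6 (0.75 in cisplatin+84-B10, 0.68 in cisplatin) rose as well. Adam10, a protease that sheds Klotho, rose by 0.49 in cisplatin+84-B10 and by 0.56 in cisplatin kidneys. These 6 genes kept their calls under each of 5 other scalings or count tests. The list holds 2 further proteases, Adam17 and Bace1. Adam17 was called higher in both treated groups (0.25 in cisplatin+84-B10, 0.30 in cisplatin). Bace1 was called higher in cisplatin kidneys (0.33) and not in cisplatin+84-B10 kidneys (0.03). Each of these calls was lost under 4 of the 5 alternatives. None of the 12 passed between cisplatin+84-B10 and cisplatin kidneys by limma. Over all genes tested, 56.6% were higher and 22.6% lower than vehicle in cisplatin+84-B10, and 56.3% and 21.8% in cisplatin kidneys.

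Of the genes of parathyroid hormone signalling, Pth, Pthlh and Pth2r did not reach the level for testing. Of 9 tested, 5 were called higher and 2 lower in each treated group against vehicle; after median-of-ratios scaling, 2 were higher and 4 lower in cisplatin kidneys. Plcb1, a phospholipase that acts downstream of the receptor, fell by 1.24 in cisplatin+84-B10 and by 1.14 in cisplatin kidneys on the log2 scale, and Rgs2, which damps G protein signals, rose by 0.86 in cisplatin+84-B10 and by 0.91 in cisplatin kidneys. Of 7 genes of the brush border scaffold, 5 were lower and 1 higher in cisplatin kidneys, and 4 lower and 1 higher in cisplatin+84-B10 kidneys. Slc9a3, the sodium-proton exchanger NHE3 that binds the same scaffolds, averaged 7.38 ± 1.30 FPKM in cisplatin+84-B10, 9.76 ± 1.86 FPKM in cisplatin and 27.9 ± 2.64 FPKM in vehicle kidneys (SD, n = 4 each; log2 fold change -1.79 in cisplatin+84-B10 and -1.43 in cisplatin). Ezr, or ezrin, which ties NHERF1 to actin, was the one that rose, at 325 ± 23.0 FPKM in cisplatin+84-B10, 307 ± 7.26 FPKM in cisplatin and 154 ± 2.57 FPKM in vehicle kidneys (log2 fold change 1.07 in cisplatin+84-B10 and 1.00 in cisplatin). None of these 16 genes passed between cisplatin+84-B10 and cisplatin kidneys. Over all genes tested, 56.6% were higher and 22.6% lower than vehicle in cisplatin+84-B10, and 56.3% and 21.8% in cisplatin kidneys.

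Of 4 vitamin D genes, the receptor Vdr (-0.20 in cisplatin+84-B10 and -0.24 in cisplatin kidneys) and its partner Rxra (-0.36 in cisplatin+84-B10 and -0.46 in cisplatin kidneys) fell against vehicle, Vdr losing the call when values were rescaled to TPM. Cyp27b1, the enzyme that makes active vitamin D and is held down by FGF23, had 22.36, 8.30, 7.45 and 15.65 FPKM in cisplatin+84-B10, 18.16, 5.77, 6.00 and 12.49 FPKM in cisplatin and 6.81, 7.38, 5.58 and 3.49 FPKM in vehicle kidneys. Libraries 1 and 4 were high in both treated groups and the others were near the vehicle range. It was called higher in cisplatin+84-B10 kidneys (log2 fold change 1.00, limma adjusted p = 0.0245), a call lost after median-of-ratios scaling, quantile normalization and in DESeq2, and was not called in cisplatin kidneys (0.67, adjusted p = 0.115). Cyp24a1, which breaks vitamin D down, ranged from 19.79 to 91.81 FPKM among vehicle libraries and did not pass in any comparison.

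Among 16 other genes of phosphate and pyrophosphate, 14 were tested, of which 6 were higher and 5 lower in each treated group against vehicle. They held the only genes of these 5 lists that passed between cisplatin+84-B10 and cisplatin kidneys, Slc34a2 and Alpl. In that comparison 2.21% of all genes tested passed. Over all genes tested, 56.6% were higher and 22.6% lower than vehicle in cisplatin+84-B10, and 56.3% and 21.8% in cisplatin kidneys. The higher call of Ank was lost in both treated groups under 4 of 5 other scalings or count tests. That of Ppip5k2 was lost under 3 in cisplatin and under 1 in cisplatin+84-B10 kidneys. Slc34a2, which encodes NaPi-IIb, the phosphate cotransporter of gut and lung, had 2.62, 2.16, 2.69 and 2.57 FPKM in cisplatin+84-B10, 6.80, 5.18, 7.72 and 7.35 FPKM in cisplatin and 0.28, 0.27, 0.33 and 0.54 FPKM in vehicle kidneys. The 3 groups did not overlap, and cisplatin+84-B10 lay between cisplatin and vehicle. The log2 fold change of cisplatin+84-B10 was -1.14 against cisplatin (limma, adjusted p = 3.63e-05) and 1.38 against vehicle (adjusted p = 4.27e-08), and that of cisplatin was 2.51 against vehicle (adjusted p = 1.26e-10). Vehicle levels were below the added 1 FPKM, and the ratio of mean FPKM to vehicle was 7.07 in cisplatin+84-B10 and 19.1 in cisplatin kidneys. The call between the treated groups held in all 22 alternatives that tested the gene, with values from -1.61 to -1.08.

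Alpl, the tissue-nonspecific alkaline phosphatase, which frees phosphate from pyrophosphate and lies in the proximal tubule brush border, had 226.83, 200.34, 211.29 and 203.85 FPKM in cisplatin+84-B10, 165.70, 160.46, 144.65 and 174.08 FPKM in cisplatin and 257.28, 280.53, 266.21 and 273.74 FPKM in vehicle kidneys. Here too the 3 groups did not overlap and cisplatin+84-B10 lay between the others. Against cisplatin the log2 fold change of cisplatin+84-B10 was 0.38 (limma, adjusted p = 0.00443), the same call in all 23 alternatives. Alpl fell against vehicle by 0.36 in cisplatin+84-B10 and by 0.74 in cisplatin kidneys on the log2 scale. The organic anion and phosphate transporter genes Slc17a1 (-1.09 in cisplatin+84-B10, -0.95 in cisplatin) and Slc17a3 (-2.42 in cisplatin+84-B10, -2.19 in cisplatin) fell against vehicle and did not pass between them.

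**Figure D4:**
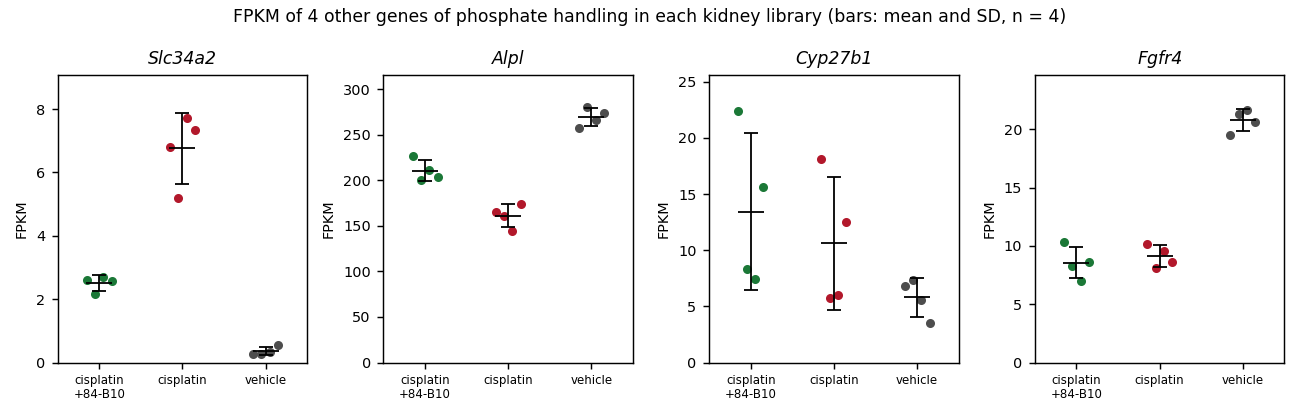
FPKM of Slc34a2, Alpl, Cyp27b1 and Fgfr4 (vertical axes, linear, each from 0) in every library of the cisplatin+84-B10, cisplatin and vehicle groups; points are libraries and bars are mean and SD, n = 4. For Slc34a2 and Alpl the cisplatin+84-B10 libraries lie between the other groups, for Cyp27b1 libraries 1 and 4 of both treated groups stand above the rest, and for Fgfr4 all treated libraries are at or below 10.3 FPKM.

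The genes whose pattern over the 12 libraries was most like that of Slc34a1, by the root mean square difference of log2(FPKM + 1) after centring each gene, were Car14 (0.16), Slc22a8 (0.17), Pfn3 (0.17), Acmsd (0.19) and Cyp2j13 (0.20), against a median of 1.44 over 12041 genes. Car14, a carbonic anhydrase, averaged 17.8 ± 6.48 FPKM in cisplatin+84-B10, 13.99 ± 5.75 FPKM in cisplatin and 113 ± 7.86 FPKM in vehicle kidneys (SD, n = 4 each). Slc22a8, the organic anion transporter OAT3, is also one of the 14 proximal tubule markers. RefSeq's Pfn3 gene overlaps the end of Slc34a1 in GRCm38.p6, so reads of these genes may not be told apart by the deposited counting. The same holds for Slc20a2 and Smim19 and for Pdzk1 and Gpr89, whose RefSeq gene bodies overlap. For Kl the most alike were Gas2 (0.11), Sfrp1, Mgat3, Nepn and Slco1a6 (0.12 each), against a median of 1.28. Gas2 averaged 34.9 ± 9.42 FPKM in cisplatin+84-B10, 33.6 ± 9.62 FPKM in cisplatin and 181 ± 11.6 FPKM in vehicle kidneys (SD, n = 4 each).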

How the data were processed

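Kidney RNA of 12 mice, 4 in each group by the labels' titles, was read from the authors' deposited gene table of 19036 genes. It holds FPKM for all 12 libraries and estimated (expected) counts under named columns for 10, without cisplatin libraries 1 and 2. The authors' group mean FPKM columns equalled the means of the columns used. A further 14 per-sample columns were not used because their headings do not name the library. Per the submitters' processing notes, HISAT2 2.0.4, Bowtie2 2.2.5 and RSEM 1.2.12 were used, with no roles given; the build, the annotation and any strand setting of the counting are not given in the labels. Deposited estimated counts summed to 17.47M to 18.17M in cisplatin+84-B10, 17.74M to 18.15M in cisplatin and 15.76M to 16.52M in vehicle libraries.

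FPKM are not counts, so genes with at least 1 FPKM in at least 4 libraries were tested as log2(FPKM + 1) with limma 3.58.1 (R 4.3.3, mean trend, 3 group means over all 12 libraries, two-sided, Benjamini-Hochberg within each comparison). A fold change on this scale understates that of low genes. Alternatives were a pseudocount of 0.1, no filter, a mean of at least 5 FPKM, median-of-ratios and quantile scaling, TPM, a replicate block, the 2 compared groups alone, each library left out, and edgeR 4.0.16 and DESeq2 1.42.0 on counts rounded to whole numbers. Relative measures were tested by exact two-sided permutation over the 70 arrangements of 4 against 4. The fits were also run on simulated data with known changes in far fewer genes than were called against vehicle here. Such a run cannot test the choice of scaling. All 10 genes were named whatever their values, as were genes of 5 pathway lists and 10 marker lists; these members, lists and tests were chosen with earlier results of these data known. One leukocyte marker is not reported here. Motifs were matched to RefSeq promoter windows of GRCm38.p6.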

Additional observations from a re-analysis of the deposited data

Results flagged for a closer look

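Of 30 groups of 4 libraries examined for the 10 genes, 1 held a library far from the others by Dixon's criterion, which chance meets in about 1 in 20 groups. Slc34a1 in cisplatin library 1 was 1061.17 FPKM, against 487.85 to 515.89 FPKM in the other cisplatin libraries, a gap of 0.951 of the group's range. This library was the highest of its group for every proximal tubule marker as well. Miox, for example, had 322.30 FPKM in it and 97.30 to 125.01 FPKM in the other cisplatin libraries. Without this library the log2 fold change of Slc34a1 in cisplatin against vehicle kidneys was -3.15 in place of -2.88, and the call held; for cisplatin+84-B10 against cisplatin it was 0.71 in place of 0.44, with no call (limma, adjusted p = 0.158).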

How the results depend on the processing

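Of 690 alternative values for the 30 fold changes of the 10 genes, 683 kept their side of the threshold, and 0 reversed a called direction. None of the 10 was called between the treated groups. There the values of Xpr1 (-0.18 to 0.02), Slc20a2 (-0.01 to 0.03) and Fgfr1 (-0.04 to 0.05) took both signs. The remaining 7 alternative values lost a call, all for Fgfr1. The 4 for cisplatin against vehicle are given above; for cisplatin+84-B10 against vehicle they were median-of-ratios scaling (0.11, adjusted p = 0.0692), quantile normalization (0.09, adjusted p = 0.171) and DESeq2 (0.12, adjusted p = 0.0561). The cause was not tested. The number of genes called between cisplatin+84-B10 and cisplatin was 275, and 176 with only those groups fitted, 444 with DESeq2 and 152 to 298 with 1 library left out (158 without cisplatin+84-B10 library 2, 152 without library 3, 178 without cisplatin library 4); fewer libraries enter those fits. Left-out libraries gave 9389 to 9731 genes for cisplatin and 9545 to 9920 for cisplatin+84-B10 against vehicle, with all 10 of the genes called in each and 0 between the treated groups. In the exact tests with 1 library left out, Slc20a1 relative to Slc20a2 between cisplatin+84-B10 and cisplatin ranged from -0.26 to -0.17 and passed without cisplatin library 2 (adjusted p = 0.0429), and Slc34a1 relative to proximal tubule markers ranged from 0.37 to 0.55, passing without cisplatin library 1. Replicate numbers were not taken as pairs, since same-numbered deviations correlated between -0.023 and 0.076 for cisplatin+84-B10 and vehicle and -0.076 and 0.079 for cisplatin and vehicle; for the treated groups they correlated at 0.561, 0.249, 0.373 and -0.238, numbers 1 to 4, and libraries 1 and 3 correlated best with their own number. With a replicate block, 9696, 9826 and 316 genes were called for cisplatin against vehicle, cisplatin+84-B10 against vehicle and cisplatin+84-B10 against cisplatin, with 10, 10 and 0 of the phosphate and Klotho genes. Slc34a2 was not tested at a mean of at least 5 FPKM. Counts were named for 2 cisplatin libraries, which limits edgeR and DESeq2.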

Other observations

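Of 5 markers of the thick ascending limb, which reabsorbs salt downstream of the proximal tubule, Slc12a1, the sodium-potassium-chloride cotransporter, fell by 2.40 and Umod, or uromodulin, fell by 1.40 on the log2 scale in cisplatin+84-B10 against cisplatin kidneys (limma, adjusted p = 0.000906 and 0.00476), and the other 3 did not pass. The summed levels of the 5 overlapped between these groups, at 122.4 to 207.7 FPKM in cisplatin+84-B10 and 203.9 to 455 FPKM in cisplatin kidneys, and were 1048 to 1134 FPKM in vehicle kidneys. Of 7 collecting duct markers, 3 were called higher in cisplatin+84-B10 than in cisplatin kidneys and 0 lower (2 and 0 after median-of-ratios scaling). Their sums were 388.6 to 610.0 FPKM in cisplatin+84-B10, 312.6 to 406.5 FPKM in cisplatin and 238.1 to 299.9 FPKM in vehicle kidneys. Between the treated groups, 0.435% of all genes tested were called higher and 1.78% lower. Aqp2, not among those 3, averaged 319 FPKM in cisplatin+84-B10, 234 FPKM in cisplatin and 108 FPKM in vehicle kidneys. Compared with vehicle, 3 of the 7 were higher and 4 lower in cisplatin kidneys, and 3 were higher and 3 lower in cisplatin+84-B10 kidneys. In cisplatin kidneys the higher calls of Foxi1 and Scnn1b were lost under 4 and 3 of 5 other scalings or count tests. Against vehicle, 1 of 5 podocyte markers was lower in cisplatin+84-B10 and 2 were lower in cisplatin kidneys, and 3 of 5 endothelial markers were lower in each. The higher calls in the podocyte and endothelial lists were Synpo and Pecam1 in cisplatin+84-B10 and Cdh5 in both treated groups. These were each lost under 4 of 5 other scalings or count tests, with signs that flipped in 3 or 4. Of 5 liver markers, 3 were higher and 2 lower in each treated group (2 and 2 in cisplatin+84-B10 after median-of-ratios scaling). Their sums were 62.97 to 85.35 FPKM in cisplatin+84-B10, 72.96 to 115 FPKM in cisplatin and 100.8 to 196.1 FPKM in vehicle kidneys. For all these counts against vehicle, the shares of all genes tested were 56.6% higher and 22.6% lower in cisplatin+84-B10 kidneys. In cisplatin kidneys they were 56.3% and 21.8%. Adrenal cortex markers summed to at most 1.69 FPKM in any library, with 4 of the 5 under 1 FPKM throughout.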
